A study of Mus musculus with 16 samples.

Results

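The 37 genes described here code for fibroblast and extracellular-matrix products: 5 fibrillar collagen chains, 3 chains of collagen VI, 2 basement membrane collagen chains, matrix glycoproteins and proteoglycans, crosslinking enzymes, membrane proteins, contractile proteins, secreted factors and the non-coding RNA H19. They were chosen by symbol, and all 37 were found among the 54532 gene identifiers of each expression file. The cultures were bone marrow-derived macrophages of FVB/N mice, in 4 groups of 4 libraries: FOXO3-/- (KO) cells with dexamethasone, KO cells with vehicle, wild-type (WT) cells with dexamethasone and WT cells with vehicle. Dexamethasone, a synthetic steroid that activates the glucocorticoid receptor, was given at 100 nM for 24 h, and the vehicle was DMSO. All groups shared a culture of 5 to 7 days in medium with 30% of L929-conditioned medium, made with a mouse fibroblast line that secretes the macrophage growth factor M-CSF. By its title, the series asked how FOXO3, a forkhead transcription factor, affects signalling by the glucocorticoid receptor. For the age and sex of the mice, and for which part of Foxo3 was deleted, the sources used here give nothing. Replicates carry numbers only, with no word on separate mice or cultures, so the spread behind each p-value may be technical.

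Fibroblasts and marrow stromal cells secrete procollagens, which are trimmed outside the cell, assembled into fibrils and crosslinked by enzymes of the lysyl oxidase family. Fibronectin, fibrillin and small proteoglycans such as decorin and biglycan organise these fibrils, and collagen IV forms the sheet of basement membranes. Stromal cells that stick to the dish can be carried along with macrophages when whole marrow is cultured, and in the marrow they are a main source of the chemokine Cxcl12. Glucocorticoids are known to alter the production of matrix by fibroblasts.

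Levels are given in FPKM, which counts fragments per kilobase of transcript and scales them to depth, so genes can be compared per length. The reads on genes recovered from these values came to 16886745 to 20584573 per library, and 1 FPKM of a gene of 2 kb rested on 32.9 to 39.7 reads. The treatment labels held: the receptor target Fkbp5 stood at 96.4 to 114 FPKM in KO dexamethasone libraries against 0.981 to 1.16 FPKM in KO vehicle libraries, and at 72.7 to 90.3 FPKM in WT dexamethasone libraries against 1.00 to 1.44 FPKM in WT vehicle libraries. Whole-gene Foxo3 lay between 21.9 and 26.4 FPKM in all 16 libraries and so did not check the genotype labels. Markers of macrophages summed to 9693 to 15750 FPKM over 10 genes, whereas 3 T cell and 3 erythroid markers stayed below 0.1 FPKM in every library. Endothelial markers summed to 2.42 to 21.4 FPKM over 8 genes. Markers of pericytes and smooth muscle summed to 0.264 to 19.8 FPKM over 8 genes, and osteoblast markers to 0.873 to 18.2 FPKM over 7. These maxima fell in WT dexamethasone libraries. Which cells the RNA of the members came from was not tested. 3 libraries stood apart from their groups in the genes of this list, namely KO vehicle replicate 4, WT dexamethasone replicate 4 and WT vehicle replicate 3. KO vehicle replicate 4 also had Xist at 0.981 FPKM, against 20.6 to 42.1 FPKM in the other 15 libraries, while Angptl7, chosen after its values were seen, stood at 16.7 FPKM in it, against 13.3 to 16.9 FPKM in the other KO libraries and at most 0.401 FPKM in WT libraries. The 4 Y-linked genes Ddx3y, Eif2s3y, Kdm5d and Uty were listed at 0 in all 16 libraries, this one included. The sources used here give no sex or batch for it, and whether it came from another mouse or batch was not tested.

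Most, but not all, of the markers that define fibroblasts were detected in these macrophage cultures. 34 of the 37 members reached at least 1 FPKM in at least 4 libraries and were tested. The other three missed that filter. Lum, which codes for the proteoglycan lumican, was detected at 0.875, 1.125 and 2.06 FPKM in WT vehicle replicates 1, 2 and 4 and at 0.825 FPKM in KO vehicle replicate 4, on 38 to 83 recovered reads, and lay below 0.4 FPKM elsewhere. Thy1, a surface marker of many fibroblasts, reached 0.608 FPKM at most, and Tagln, which codes for the actin-binding protein transgelin, 0.539 FPKM. The fibroblast markers Col1a1, Col1a2, Col3a1, Dcn and Pdgfra passed.

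Col1a1, which codes for the alpha 1 chain of collagen I (chromosome 11, 94936224 to 94953042, GRCm38, plus strand), spanned nearly the whole range of the list. It stood at 1.18, 1.2, 14.95 and 25.5 FPKM in KO dexamethasone libraries, at 4.76, 0.506, 0.395 and 95.8 FPKM in KO vehicle libraries, at 355.5, 159, 286 and 19.1 FPKM in WT dexamethasone libraries and at 126.6, 124, 6.77 and 173.6 FPKM in WT vehicle libraries. These levels rested on 45 to 38392 recovered reads. 7 libraries lay above 50 FPKM (called Col1a1-rich below) and 9 below it (Col1a1-poor). 3 of the 4 libraries of each WT group were rich, and only replicate 4 of the KO vehicle group was. In such bulk samples, fewer cells of a type and less RNA per cell cannot be told apart.

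The highest levels among the other members belonged to Sparc, a collagen-binding glycoprotein, at up to 358.7 FPKM, Lox, the lysyl oxidase that crosslinks collagen, at up to 337.3 FPKM, Serping1, the C1 inhibitor of complement, at up to 266.4 FPKM, and Dpep1, a membrane dipeptidase, at up to 253.4 FPKM. All 4 maxima fell in WT dexamethasone libraries. Postn, which codes for periostin, and Dcn, which codes for decorin, reached 9.38 and 12.1 FPKM at most. Igfbp4, which codes for a binding protein of insulin-like growth factors, was never low, with 37.9 to 59.6 FPKM in KO dexamethasone, 116.8 to 233.5 in KO vehicle, 66.0 to 137.0 in WT dexamethasone and 104.3 to 193.3 FPKM in WT vehicle libraries. Cav2, which codes for caveolin 2, was likewise detected everywhere, between 3.845 and 24.3 FPKM.

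**Figure D1:**
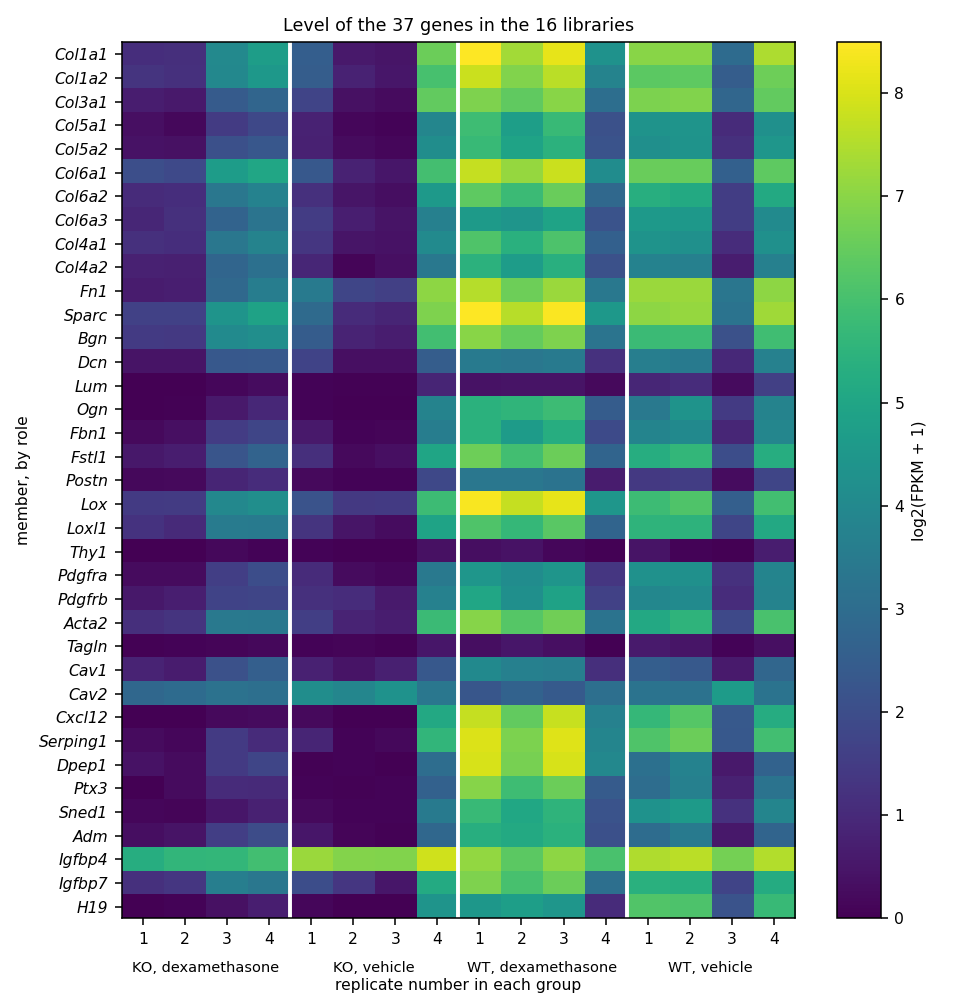
Level of each of the 37 genes (rows, by role) in the 16 libraries (columns, 4 replicates per group), coloured by log2(FPKM + 1). Most rows change together from library to library: KO vehicle replicate 4 resembles the rich WT libraries, WT dexamethasone replicate 4 and WT vehicle replicate 3 are darker than their groups, and Igfbp4 and Cav2 do not follow the others.

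Most members moved with Col1a1 from library to library. Over the 16 libraries, 27 of the 33 other members tested had a Pearson r of at least 0.9 with Col1a1 on the log2(FPKM + 1) scale, against 4.05% of the 11616 genes tested outside the list. The members were assembled with this co-variation known, so the count and each r are descriptions, given with no p. Sparc came closest, with r = 0.999 and Spearman's rho = 0.991, followed by Col1a2, the partner chain of Col1a1 in collagen I, with r = 0.998 and rho = 0.985. Without the 2 libraries farthest from the median of Col1a1 (KO vehicle replicate 3 and WT dexamethasone replicate 1), r was 0.999 for Sparc and 0.998 for Col1a2, and 27 members still had an r of at least 0.9. On deviations from the group means the number was 28. Among the 9 Col1a1-poor libraries 20 members reached it, and among the 7 Col1a1-rich libraries 13 did.

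6 members were below 0.9 over all libraries. These were Postn (r = 0.896), Ptx3, which codes for the soluble pattern receptor pentraxin 3 (0.896), H19, an imprinted non-coding RNA (0.889), Dpep1 (0.857), Igfbp4 (0.50, rho = 0.474) and Cav2 (-0.596, rho = -0.509). Cav2 ran against Col1a1 in each subset: its r was -0.435 without the 2 farthest libraries, -0.902 among the 7 rich libraries, -0.251 among the 9 poor ones and -0.72 on deviations from the group means. Cxcl12 had r = 0.921 over all libraries and 0.51 among the 9 poor ones, where KO libraries with Col1a1 of up to 25.5 FPKM had at most 0.197 FPKM of Cxcl12. Col3a1, which codes for collagen III, and Fn1, which codes for fibronectin, followed Col1a1 over all libraries (r = 0.977 and 0.96) but not among the 7 rich ones (0.454 and 0.464).

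**Figure D2:**
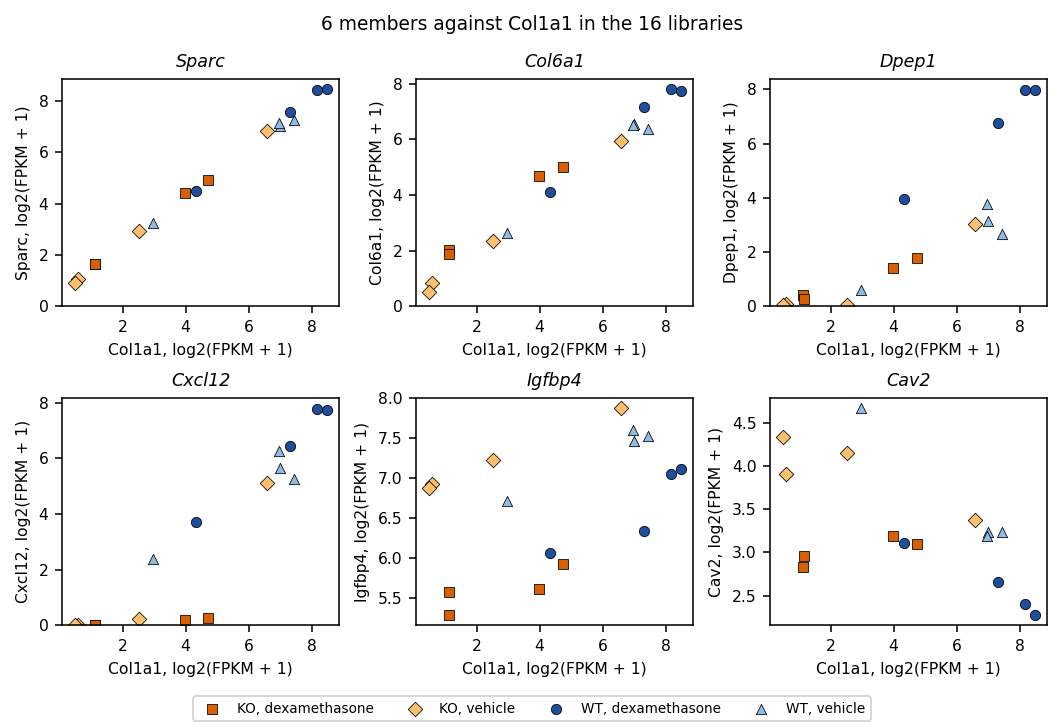
6 members (y axes) against Col1a1 (x axes), both as log2(FPKM + 1), with 1 point per library and 4 groups by colour and shape. Sparc and Col6a1 lie on a line, Dpep1 lies higher in WT dexamethasone libraries than in others of like Col1a1, Cxcl12 is near 0 in 7 KO libraries, and Igfbp4 and Cav2 do not lie on a line.

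Outside the list, among 10885 genes with a symbol and a mean of at least 1 FPKM, the 10 genes most like Col1a1 by Pearson r over the 16 libraries were Serpinh1 (0.997), which codes for the collagen chaperone HSP47, Serpinf1 (0.995), Fscn1 (0.993), Pcolce (0.99), which codes for an enhancer of procollagen cleavage, Gsta4, Cald1, Myl9, Aebp1, Cnn3 and Csf1 (0.986). Csf1 codes for M-CSF, and stood at 1.69 to 13.5 FPKM in KO dexamethasone, 1.41 to 30.1 in KO vehicle, 6.38 to 66.7 in WT dexamethasone and 4.42 to 38.7 FPKM in WT vehicle libraries.

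The 3 libraries that stood apart did so by a near-common factor across the members. In WT vehicle replicate 3, members stood at a median of 6.15% of the mean of the other 3 WT vehicle libraries, with 28 of 34 within 1.5-fold of that median. Cav2 stood at 292% and Igfbp4 at 56.6%. In WT dexamethasone replicate 4, the median was 8.05% of the mean of the other 3 WT dexamethasone libraries, again with 28 of 34 within 1.5-fold. H19 was lowest there, at 4.71%, and Cav2 highest, at 171%. KO vehicle replicate 4 stood at a median of 79.7% of the mean of WT vehicle replicates 1, 2 and 4, with 30 of 34 within 1.5-fold of that median. The lowest member in that comparison was H19, at 31.1%, and the highest Postn, at 128%.

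The first comparison asked which members respond to dexamethasone in wild type, over 4 libraries against 4. Dpep1 and Ptx3 rose and Cav2 fell, so 3 of 34 members passed, against 30.1% of the 11654 genes tested (limma on log2(FPKM + 1), Benjamini-Hochberg adjusted over all genes, threshold 0.05). Dpep1 stood at 249, 106.3, 253 and 14.7 FPKM in WT dexamethasone libraries and at 7.73, 12.7, 0.512 and 5.38 FPKM in WT vehicle libraries. The lowest dexamethasone library was above the highest vehicle library, and the log2 difference was 4.12 ± 0.92 (SE; limma adjusted p = 0.00376). Ptx3 stood at 121.6, 57.1, 94.2 and 4.45 FPKM with dexamethasone and at 7.21, 12.1, 0.712 and 8.33 FPKM with vehicle in WT. Replicate 4 of the dexamethasone group fell among the vehicle values, and the log2 difference was 2.77 ± 0.90 (limma adjusted p = 0.0311). Without WT dexamethasone replicate 4, 7 members passed in that comparison, beside 3633 of all genes, and without WT dexamethasone replicate 3 the count was 1, beside 3213. Leaving replicate 4 out left only Col1a1-rich libraries in the WT dexamethasone group, so that count is a description.

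Cav2 went the other way. It stood at 3.845, 5.29, 4.30 and 7.66 FPKM in WT dexamethasone libraries and at 8.40, 8.15, 24.3 and 8.45 FPKM in WT vehicle libraries, with no overlap and a log2 difference of -0.97 ± 0.30 (limma adjusted p = 0.0242). The other 31 members did not pass. Their spread within a group was wide: Col1a1 averaged 204.9 ± 148 FPKM in WT dexamethasone and 107.8 ± 71.1 FPKM in WT vehicle libraries (SD, n = 4 each), and its log2 difference was 0.98 ± 1.43. The median log2 difference over the 34 members was 1.09, beside -0.0177 over all genes tested.

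Among the Col1a1-rich WT libraries (dexamethasone replicates 1, 2 and 3 against vehicle replicates 1, 2 and 4), the within-group spread was much smaller. The libraries were picked as having over 50 FPKM of Col1a1 and were not matched on it: Col1a1 averaged 266.8 ± 99.5 FPKM in the rich dexamethasone libraries and 141.4 ± 27.9 FPKM in the rich vehicle libraries (SD, n = 3 each). 28 of 34 members passed, 25 higher and 3 lower with dexamethasone, against 28.5% of all genes tested. The choice by Col1a1 itself narrows the spread of members that follow it. The SE of Sparc was 1.37 in the WT comparison over all libraries and 0.23 here, and that of Col6a1 1.28 and 0.17. These calls therefore describe the libraries chosen and not how WT cultures vary. By direction the background was 11.2% higher and 17.3% lower. The median log2 difference was 1.04 for the members and -0.0208 for all genes. Where the 8 KO libraries shared the estimate of the spread with these 6, the count was 5 of 34, namely Dpep1, Ptx3, Adm and Postn higher and Cav2 lower, beside 27.7% of all genes.

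With a fibroblast score as a covariate in this comparison, the mean log2 level of 24 matrix and fibroblast genes outside the list, 16 of the 28 members kept their call and 12, all higher before, lost it. In that fit 13 of 34 members were higher and 4 lower, beside 910 genes higher and 1534 lower of the 11654 tested. The 12 were Col1a2 (log2 difference 0.21 with the covariate), Col5a1 (0.17), Col5a2 (0.40), Col6a2 (0.45), Sparc (0.25), Fstl1 (0.37), Sned1 (0.60), Loxl1 (0.16), Acta2 (0.56), Pdgfrb (0.09), Serping1 (0.28) and Cxcl12 (0.40). Dpep1 (3.23), Ptx3 (2.26), Adm (2.01), Postn (1.79), Ogn (1.74), Lox (1.59), Cav1 (1.04), Col4a1 (0.92) and Col4a2 (0.78) stayed higher, as did Fbn1 (0.56), Bgn (0.52), Col6a1 (0.52) and Igfbp7 (0.51) at smaller values. H19 (-1.21), Igfbp4 (-1.37) and Cav2 (-0.47) stayed lower, and Fn1 (-0.78), not called without the covariate, was lower with it. Some genes of the score responded to dexamethasone themselves, as described below, so the covariate is not independent of the treatment. The values that follow are those without the covariate.

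Of the 10 collagen chains, 7 rose, of which 3 kept the call with the covariate. Col1a1 itself, the gene that chose the libraries, stood at 355.5, 159 and 286 FPKM in the rich dexamethasone libraries and at 126.6, 124 and 173.6 FPKM in the rich vehicle libraries. These overlap, and its log2 difference of 0.85 ± 0.28 did not pass (limma adjusted p = 0.060). With array weights it was 1.17 and by limma voom on recovered reads 0.97, and there it passed. Because these libraries were chosen by Col1a1, no fit to them tests its response, and these values are descriptions. Col1a2 (0.97), Col5a1 (1.11) and Col5a2 (1.01), whose products regulate fibril width, rose on the log2 scale, as did Col6a1 (1.08) and Col6a2 (1.03), chains of the beaded-filament collagen VI. Col3a1 did not pass, at 114.6, 83.9 and 124 FPKM with dexamethasone against 112.7, 117 and 86.0 FPKM with vehicle, a log2 difference of 0.02 ± 0.17. Col6a3 gave 0.29 ± 0.16 and did not pass either (limma adjusted p = 0.227).

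Both basement membrane collagen chains rose, with larger log2 differences than any fibrillar chain. Col4a1 stood at 70.3, 41.2 and 67.9 FPKM with dexamethasone and at 19.8, 18.3 and 18.1 FPKM with vehicle in the rich WT libraries, a log2 difference of 1.59 ± 0.19. Col4a2 gave 1.46 ± 0.19, with 43.2, 24.6 and 40.4 FPKM against 12.5, 12.04 and 11.8 FPKM. Both genes start within 21 bases of each other on opposite strands of chromosome 8 (GRCm38, at 11312826 for Col4a1 and 11312805 for Col4a2) and share 22 bases of exon. The difference between the collagen families was not tested.

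Of the 9 matrix glycoproteins and proteoglycans tested, 7 rose. Postn stood at 9.38, 9.28 and 8.44 FPKM with dexamethasone and at 1.65, 1.93 and 2.41 FPKM with vehicle (log2 difference 1.75 ± 0.11). Ogn, which codes for osteoglycin, stood at 42.2, 46.0 and 56.0 FPKM against 9.86, 19.7 and 12.8 FPKM (1.74 ± 0.22). Fbn1, Sned1, Sparc, Fstl1 and Bgn rose by 0.93 to 1.21 on the log2 scale. Of Fbn1, which codes for fibrillin 1, 20.1% of the exon length overlaps a gene on the other strand, and of Sned1, a fibronectin-type matrix protein, 19.5%. The sources used here do not state whether counting used strand, so reads of such pairs cannot be told apart. Fn1, at 184, 98.0 and 147.0 FPKM with dexamethasone and 148.2, 148.5 and 131 FPKM with vehicle, and Dcn, at 10.2, 9.22 and 10.02 FPKM against 11.3, 9.99 and 12.1 FPKM, did not pass.

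Lox was among the steepest. It stood at 337.3, 211.4 and 290.6 FPKM with dexamethasone and at 55.3, 70.95 and 59.5 FPKM with vehicle, a log2 difference of 2.14 ± 0.17, whereas its relative Loxl1 gave 0.67 ± 0.18 (limma adjusted p = 0.0293). The contractile gene Acta2, which codes for smooth muscle actin, rose by 1.05 ± 0.25. Among membrane proteins, Cav1, which codes for caveolin 1, rose by 1.22 ± 0.14 while its neighbour Cav2 fell by 0.78 ± 0.10. Pdgfrb, a receptor for platelet-derived growth factor, rose by 0.78 ± 0.20, and its relative Pdgfra, at 0.21 ± 0.15, did not pass.

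The secreted factors and Dpep1 held the widest changes. Dpep1 averaged 203 ± 83.7 FPKM in the rich dexamethasone libraries and 8.61 ± 3.76 FPKM in the rich vehicle libraries (SD, n = 3 each), a log2 difference of 4.37 ± 0.39 (limma adjusted p = 0.000221). Ptx3 followed with 3.13 ± 0.28 and Adm, which codes for the vasodilator peptide adrenomedullin, with 2.22 ± 0.18. Adm stood at 39.3, 34.7 and 42.0 FPKM with dexamethasone against 7.00, 10.4 and 5.70 FPKM with vehicle. Cxcl12 stood at 214, 86.6 and 219 FPKM against 49.1, 75.5 and 37.1 FPKM (1.61 ± 0.39) and Serping1 rose by 1.42 ± 0.34, both calls that the covariate ended (limma adjusted p = 0.50 and 0.511). Igfbp7, another binding protein of insulin-like growth factors, rose by 1.17 ± 0.19. 2 RNAs joined Cav2 in falling: H19 stood at 21.4, 26.2 and 21.1 FPKM with dexamethasone and at 71.3, 68.7 and 51.8 FPKM with vehicle (-1.44 ± 0.14), and Igfbp4 gave -0.70 ± 0.19.

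**Figure D3:**
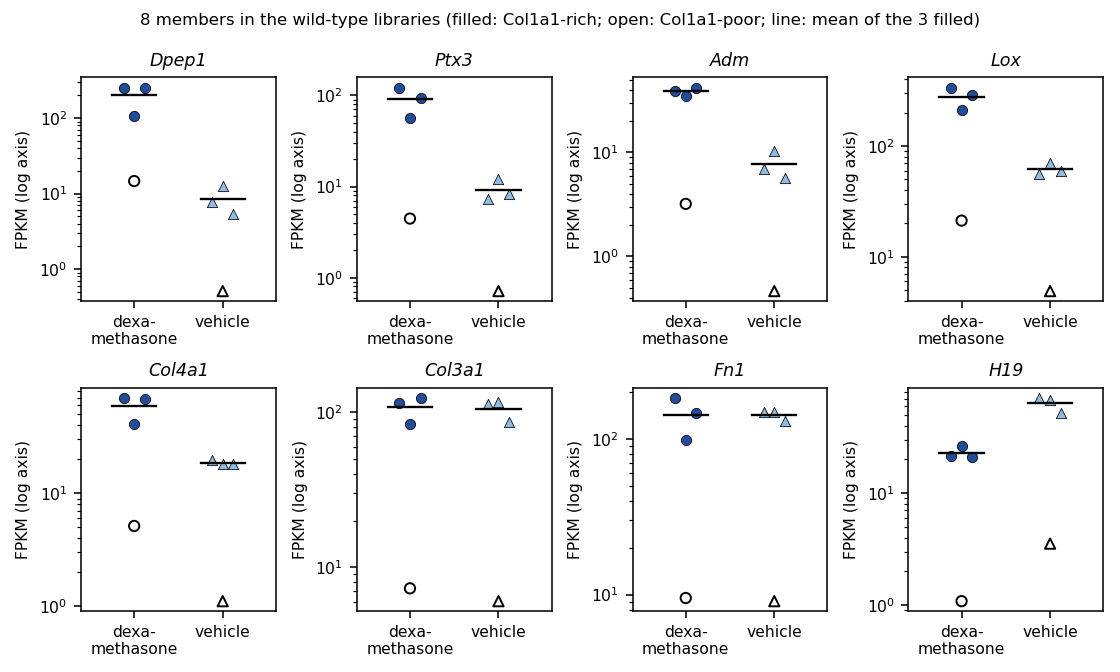
FPKM (log axes) of 8 members in the WT libraries, dexamethasone left and vehicle right. Filled points are the 3 Col1a1-rich libraries of each group with their mean as a line, and open points are the Col1a1-poor library: Dpep1, Ptx3, Adm, Lox and Col4a1 lie higher with dexamethasone in the filled and in the open points, Col3a1 and Fn1 do not separate, and H19 lies lower.

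Because Col1a1 itself varied so widely, each member was also expressed as a percentage of the Col1a1 FPKM of the same library, a description added after the data were seen. Over all 8 WT libraries, 6 of 33 members stood higher with dexamethasone without overlap, against 0.515% of all genes taken the same way, and 3 stood lower without overlap, against 0.884%. Col1a1 ranged from 19.1 to 355.5 FPKM in WT dexamethasone and from 6.77 to 173.6 FPKM in WT vehicle libraries. Division by it spreads genes that do not follow it: Cav2, apart in FPKM, overlapped at 1.08 to 40.0% against 4.87 to 360%. Both shares of all genes are therefore low by construction, and the counts are descriptions. Relative to Col1a1, Dpep1 stood at 66.8 to 88.7% in WT dexamethasone libraries and at 3.10 to 10.3% in WT vehicle libraries. Ptx3 stood at 23.3 to 35.9% against 4.8 to 10.5%, Adm at 11.04 to 21.8% against 3.28 to 8.39%, and Lox at 94.9 to 132.8% against 34.2 to 72.2%. Col4a1 (19.8 to 26.9% against 10.4 to 16.4%) and Col4a2 (12.2 to 17.03% against 6.82 to 9.86%) completed the higher set. Lower were H19 (5.63 to 16.4% against 29.8 to 56.4%), Fn1 (49.7 to 61.6% against 75.5 to 134%) and Dcn (2.87 to 6.81% against 6.99 to 14.4%). Among the 6 rich libraries alone 13 of 33 members separated in this ratio, near the 44.4% of all genes that did. In the pair left out, WT dexamethasone replicate 4 against WT vehicle replicate 3, 11 of the 13 had the same direction, all but Postn and Cav1, against 99.0% of all genes so separated. These shares also rest on Col1a1, which was higher with dexamethasone in that pair, at 19.1 against 6.77 FPKM. It averaged 266.8 against 141.4 FPKM in the rich libraries, so a gene with unchanged FPKM would fall in this ratio.

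**Figure D4:**
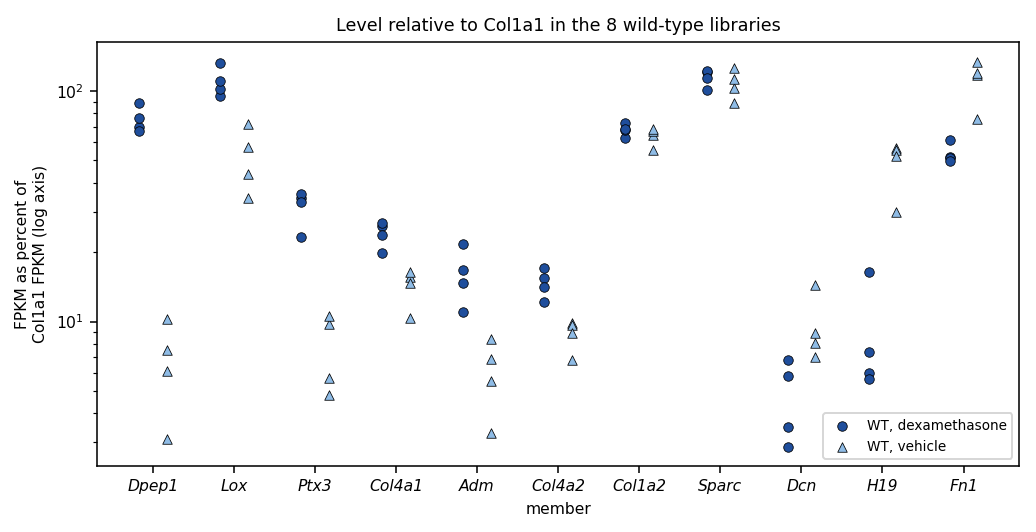
FPKM of 11 members as a percentage of Col1a1 FPKM (log axis) in the 4 WT dexamethasone libraries (left of each pair) and the 4 WT vehicle libraries (right). Dpep1, Lox, Ptx3, Col4a1, Adm and Col4a2 separate upward, Dcn, H19 and Fn1 separate downward, and Col1a2 and Sparc overlap.

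The same fibroblast score was carried as a covariate in the comparison of all WT libraries. That fit used all 16 libraries, so the KO libraries shared its slope and spread. 11 members were higher, against 16.3% of all genes, and 5 lower, against 22.3%. Those higher were Dpep1 (log2 difference 3.5), Ptx3 (2.16), Adm (1.47), Lox (1.30), Postn (1.02), Ogn (0.96), Col4a1 (0.87), Col4a2 (0.80), Cav1 (0.60), Fbn1 (0.51) and Col5a1 (0.41). Those lower were H19 (-2.09), Fn1 (-0.88), Igfbp4 (-0.86), Cav2 (-0.80) and Pdgfra (-0.42).

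The glucocorticoid receptor binds a palindrome of the short motif AGAACA, or TGTTCT on the other strand. The promoter table of RefSeq (GRCm38.p6, 250 bases before to 50 after each start) held 25 of the 37 members, with 28 starts. The full palindrome, AGAACA and TGTTCT with 3 free bases between them, was in none of them and in 0.00913% of all 32851 promoters. The short motif AGAACA alone, searched on both strands, was in 4 of the 28 starts, 1 each of Acta2, Bgn, Cav1 and Sparc, against 16.1% of all promoters. It is shown in capitals in the 150 bases before the start, 5′ to 3′, for the 2 members that rose over all WT libraries, Dpep1 (chr8:123186085-123186234, plus strand) and Ptx3 (chr3:66219737-66219886, plus strand), and for 2 members that hold it, Sparc (chr11:55420081-55420230, minus strand) and Cav1 (chr6:17306185-17306334, plus strand).
Dpep1: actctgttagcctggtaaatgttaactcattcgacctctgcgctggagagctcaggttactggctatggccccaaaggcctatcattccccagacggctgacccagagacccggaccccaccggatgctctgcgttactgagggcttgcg
Ptx3: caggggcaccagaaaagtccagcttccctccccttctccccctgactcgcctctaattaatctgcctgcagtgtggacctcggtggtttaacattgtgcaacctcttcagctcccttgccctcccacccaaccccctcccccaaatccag
Sparc: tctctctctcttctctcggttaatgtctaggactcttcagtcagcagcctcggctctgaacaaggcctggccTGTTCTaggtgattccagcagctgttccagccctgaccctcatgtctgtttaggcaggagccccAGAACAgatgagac
Cav1: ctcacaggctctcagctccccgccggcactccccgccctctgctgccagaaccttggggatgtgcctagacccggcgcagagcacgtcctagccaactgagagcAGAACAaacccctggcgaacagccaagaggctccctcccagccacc
Neither Dpep1 nor Ptx3 held these letters in this window, Sparc held 2 and Cav1 held 1. The CCAAT box (CCAAT) was in 4 of the 28 starts, 1 each of Cav2, Col1a2, Col4a1 and Col4a2, against 33.8% of all promoters. The TATA box (TATAAA) was in 5 starts, 1 each of Cav1, Col3a1, Igfbp4, Ogn and Postn, against 12.4%. Both were searched on both strands.

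In KO cells, Igfbp4 and Cav2 fell with dexamethasone and no other member passed, so 2 of 34 passed, against 39.1% of all genes tested. Igfbp4 stood at 37.9, 46.6, 47.8 and 59.6 FPKM in KO dexamethasone libraries and at 149, 120.8, 116.8 and 233.5 FPKM in KO vehicle libraries. The groups lay well apart, with a log2 difference of -1.63 ± 0.27 (limma adjusted p = 0.000316). Cav2 stood at 6.13, 6.77, 8.12 and 7.55 FPKM against 16.7, 14.01, 19.2 and 9.34 FPKM, again without overlap (-0.92 ± 0.30, limma adjusted p = 0.0244). Without 1 of KO dexamethasone replicates 1 and 2 or KO vehicle replicates 1 and 3, Cav2 missed the threshold and the count was 1, beside 3815 to 4318 of all genes. The median log2 difference of the members was 0.0443, beside -0.0548 for all genes. Dpep1 and Ptx3 gave 0.18 ± 0.92 and -0.15 ± 0.90 in KO and did not pass.

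The KO values of several members rested on few reads. KO vehicle replicates 1, 2 and 3 held 1, 2 and 1 recovered reads of Dpep1, and KO dexamethasone replicates 1 to 4 held 15, 9, 80 and 121. As a percentage of Col1a1, Dpep1 stood at 29.1, 15.7, 11.3 and 9.61% in KO dexamethasone libraries and at 0.491, 9.60, 5.87 and 7.46% in KO vehicle libraries, below the 66.8 to 88.7% of WT dexamethasone libraries throughout. Fn1 stood at 42.6 to 53.6% of Col1a1 in KO dexamethasone libraries and at 137 to 525.5% in KO vehicle libraries, without overlap, the direction it had in WT. The highest of these ratios rested on Col1a1 at 0.506 and 0.395 FPKM, in KO vehicle replicates 2 and 3. The share of all genes so separated in KO was not counted. In FPKM the KO groups overlapped for Fn1, and it did not pass (log2 difference -1.52 ± 1.28, limma adjusted p = 0.377). With the fibroblast score as a covariate, 8 members were higher with dexamethasone in KO, among them Col6a1 (1.39), Col4a1 (1.11), Col6a2 (1.04) and Col4a2 (0.96), and 3 were lower, Igfbp4 (-1.55), Fn1 (-1.13) and Cav2 (-1.0), against 47.1% of all genes either way.

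The test of the difference between the KO and WT responses called no member, against 0.129% of all genes (limma). 3 of 34 members had an unadjusted p under 0.05, against 11.7% of all genes, and the lowest adjusted p was that of Dpep1, 0.262, with a difference of responses of -3.94 on the log2 scale. Without WT dexamethasone replicate 4, Dpep1 (-4.84, limma adjusted p = 0.033) and Ptx3 (-3.92, 0.045) passed, beside 330 of the 11654 genes tested. Leaving that library out sets only Col1a1-rich WT dexamethasone libraries against poor KO dexamethasone libraries. The choice favours this direction, and these calls are descriptions. The library left out held the lowest Dpep1 and Ptx3 of its group, at 14.7 and 4.45 FPKM. Of the libraries left out 1 at a time, it was the only one whose absence gave a member call. With the fibroblast score as a covariate, Dpep1 (-3.04), Ptx3 (-2.04), Adm (-1.01) and Igfbp4 (-0.69) passed, against 1.32% of all genes.

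Between genotypes in vehicle, none of the 34 members passed, against 4.68% of all genes tested. 20 had an unadjusted p under 0.05, against 21.7% of all genes, and 33 of 34 had a negative log2 difference, with a median of -2.28 beside 0.0421 for all genes. The lowest adjusted p was that of H19, 0.0567, at 0.118, 0, 0 and 19.9 FPKM in KO vehicle and 71.3, 68.7, 3.53 and 51.8 FPKM in WT vehicle libraries. The groups overlapped through KO vehicle replicate 4 and WT vehicle replicate 3. Without KO vehicle replicate 4, the only Col1a1-rich KO library, 20 members passed, all lower in KO, against 3.16% of all genes lower. Leaving it out sets poor KO libraries against mostly rich WT libraries. The choice thus favours this direction, and the count is a description. Without KO vehicle replicate 4, WT dexamethasone replicate 4 and WT vehicle replicate 3, 33 passed, 32 lower and 1 higher, against 34.0% of all genes. Those 3 libraries were left out for their levels of Col1a1, which leaves rich WT against poor KO libraries, so the direction of that last count was set by the choice and it is given as a description.

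Under dexamethasone, 24 of 34 members were lower in KO than in WT and none was higher, against 26.7% of all genes either way and 12.4% lower. 14 of them did not overlap between the groups, against 10.2% of all genes. All 5 fibrillar collagens, 7 of 9 matrix glycoproteins and proteoglycans and all 6 secreted factors were lower. Collagen IV and VI chains did not pass, with log2 differences of -3.31 to -2.02. The widest difference was that of Cxcl12, at 0.0140, 0.0191, 0.154 and 0.197 FPKM in KO dexamethasone libraries against 214, 86.6, 219 and 12.2 FPKM in WT dexamethasone libraries (log2 difference -6.30 ± 1.16, limma adjusted p = 0.00224). Serping1 gave -5.98 ± 1.25 and Dpep1 -5.70 ± 0.92. This comparison shares its libraries with the dexamethasone comparisons above. Without WT dexamethasone replicate 1 the count was 7, beside 592 genes lower of the 11654 tested. Without WT dexamethasone replicate 4 it was 33, beside 1801 genes lower. Leaving replicate 4 out sets only Col1a1-rich WT libraries against poor KO libraries, so the choice favours this direction and that count is a description.

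Since Col1a1 was lower in most KO libraries, libraries of like Col1a1 level were set side by side. KO dexamethasone replicates 3 and 4 held Col1a1 at 78.2 and 133% of WT dexamethasone replicate 4. Cxcl12 stood at 1.27 and 1.62% of that library, on 24 and 32 recovered reads against 1725. Serping1 stood at 12.6 and 7.65%, Dpep1 at 11.51 and 16.7%, Ogn at 10.9 and 20.9%, Sned1 at 12.1 and 20.1% and Ptx3 at 23.8 and 22.4%. Other members stood above it: Dcn at 314 and 322%, Cav1 at 276 and 405% and Col4a1 at 182 and 252%. In the vehicle groups, KO vehicle replicate 1 held Col1a1 at 70.3% of WT vehicle replicate 3, with H19 at 3.34%, Ogn at 4.01%, Cxcl12 at 4.07%, Dpep1 at 4.56% and Ptx3 at 9.11%, but Dcn at 236%. KO vehicle replicate 4 did not share this: its Cxcl12 stood at 62.8% of the mean of WT vehicle replicates 1, 2 and 4, its Ogn at 90.6% and its Dpep1 at 82.9%.

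**Figure D5:**
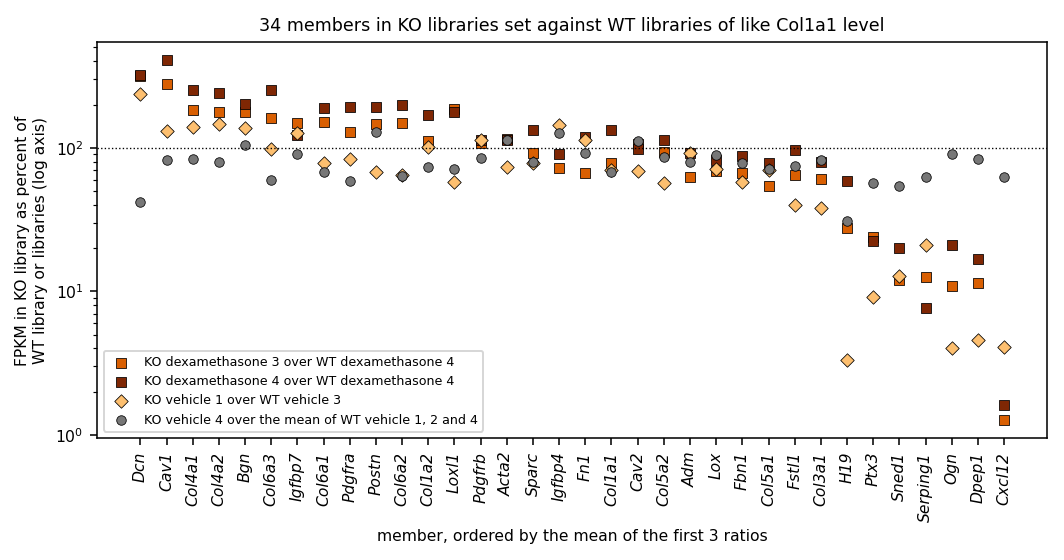
FPKM of the 34 tested members in KO libraries as a percentage of WT libraries of like Col1a1 level (log axis), with members ordered by the mean of the first 3 ratios and 100% as a dotted line. In the 3 Col1a1-poor KO libraries Cxcl12, Dpep1, Ogn, Serping1, Sned1 and Ptx3 lie below nearly all other members, H19 lies low in all but KO dexamethasone replicate 4, and in KO vehicle replicate 4 H19 is lowest.

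A fit over the 9 Col1a1-poor libraries alone had 1 WT library a treatment, chosen by its Col1a1 level. Its spread came from the KO libraries, where several members lay near 0, so it describes these libraries and says nothing of how WT cultures vary. Under dexamethasone the 6 members past the threshold there, all lower in KO than in WT and set beside 2.24% of all genes, were Cxcl12 (log2 difference -3.59), Serping1 (-3.15), Dpep1 (-3.00), Ogn (-2.06), Ptx3 (-1.87) and Sned1 (-1.78). In vehicle they were Cxcl12 (-2.28) and H19 (-2.13), beside 0.266%. With the fibroblast score as a covariate over all 16 libraries, 8 members were lower in KO under dexamethasone, namely those 6 with Adm and Col5a1, against 4.49% of all genes.

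Some markers of marrow stroma and fat were low where Cxcl12 was low, and others were not. In the 7 KO libraries with Cxcl12 under 1 FPKM, 3 of 13 such markers lay below every WT library. Those libraries were picked by their Cxcl12, and the share of all genes below every WT library was not counted, so this is a description. Of the 3 markers, Adipoq was listed at 0, Lepr reached 0.0143 FPKM and Foxc1 0.243 FPKM at most. KO vehicle replicate 4 had 2.14 FPKM of Adipoq, 0.323 of Lepr and 4.95 of Foxc1, and WT libraries had 0.0839 to 16.8 FPKM of Adipoq, 0.0246 to 1.76 of Lepr and 0.277 to 13.7 of Foxc1. The other 10 did not lie below every WT library. The fat markers Lpl, at 96.0 to 455.7 FPKM in those KO libraries against 57.7 to 457.8 FPKM in WT libraries, and Fabp4, at 13.2 to 24.5 against 12.8 to 30.5 FPKM, were not low in KO, and the defining fat marker Lep was listed at 0 throughout. The stroma markers Vcam1 (0.597 to 9.92 FPKM against 2.70 to 20.5), Kitl (2.01 to 4.90 against 2.48 to 26.6) and Grem1 (0.303 to 2.23 against 0.681 to 8.74) overlapped between those KO libraries and WT libraries. Summed over the 7 marrow stroma markers, the levels were 6.19 to 16.04 FPKM in KO dexamethasone, 4.32 to 26.6 in KO vehicle, 15.4 to 76.8 in WT dexamethasone and 6.8 to 39.1 FPKM in WT vehicle libraries. The part of such cells in the result was not tested.

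Of 30 other fibroblast and matrix genes, 24 were measured, and in the rich WT libraries 9 rose and 1 fell, against 11.2% and 17.3% of all genes. Here and in the lists below, the choice of these libraries by Col1a1 narrows the spread of genes that follow it. Col12a1, which codes for collagen XII, stood at 28.8, 15.6 and 24.4 FPKM with dexamethasone against 3.75, 4.98 and 5.34 FPKM with vehicle (log2 difference 2.04 ± 0.22). Vcan, which codes for versican, rose by 1.05, and Pdpn, which codes for podoplanin, fell by 1.32. Over all 8 WT libraries 1 of the 24, Pdpn, passed, against 30.1% of all genes, and under dexamethasone 16 were lower in KO than in WT, against 12.4%.

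Genes that process collagen followed a like course. Of 17 measured, 9 rose and 1 fell in the rich WT libraries, again against 11.2% and 17.3% of all genes, with Plod2 (0.65), a lysyl hydroxylase, and P4ha2 (0.92), a prolyl hydroxylase, higher and Loxl3 (-0.72) lower. Of 12 matrix proteases and their inhibitors measured, 5 fell and 1 rose in the rich WT libraries, against 17.3% and 11.2%. Plau, which codes for urokinase, stood at 8.11, 6.72 and 8.01 FPKM with dexamethasone against 48.2, 39.0 and 34.7 FPKM with vehicle, and Mmp12, the macrophage elastase, at 8.45, 15.2 and 10.9 FPKM against 111.4, 91.0 and 108.8 FPKM.

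Of 10 genes of the response to TGF-beta, a growth factor that drives matrix production, 5 rose and 3 fell in the rich WT libraries, against the same 11.2% and 17.3% of all genes. Tgfbi, a matrix protein induced by it, rose by 1.44 and Ccn1, a matricellular protein, by 1.28, while Tgfbr2, its receptor, fell by 0.66. All 8 glucocorticoid receptor targets rose in both genotypes, where 39.1% of all genes in KO and 30.1% in WT passed in either direction. Of 6 marrow stroma markers measured, 5 rose and 1 fell in the rich WT libraries, among them Kitl, which codes for stem cell factor, by 1.44, Vcam1 by 1.17 and Angpt1 by 0.93, and of 10 macrophage markers 1 rose and 8 fell, against 11.2% of all genes higher and 17.3% lower.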

How the data were processed

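Libraries were made from total RNA and the authors deposited FPKM values, a file per library with 54532 gene identifiers from Ensembl. The submitters' processing notes name HTSeq 0.6.1, TopHat2 2.0.12, Bowtie2 2.2.3 and DESeq2 and the builds mm10 and GRCm38; which step each did, the strand setting and the annotation are not given in these sources. GENCODE M21 supplied symbols, coordinates and exon lengths for 54495 identifiers. Reads were recovered from FPKM and exon length: 96.3 to 96.7% of positive values were whole within 0.05 reads.

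Groups came from the labels. FPKM is not a count, so log2(FPKM + 1) was tested in R 4.3.3 by limma 3.58.1 (a linear model with intensity trend, 4 group means, 16 libraries) over the 11654 genes with 1 FPKM or more in at least 4 libraries; log2 differences are on that scale, which understates low genes. Tests were two-sided with Benjamini-Hochberg adjustment per comparison. The Col1a1-rich comparison was fitted to its 6 libraries alone. These steps were tested on simulated data with independent errors, which held neither members that move together nor a choice of libraries by Col1a1. Genes named were all members, Fkbp5, Foxo3, up to 3 passing genes of each further list and the 10 genes most like Col1a1; Xist and Angptl7 were added after their values were seen. The gene that rose among matrix proteases and inhibitors is not reported here by name. The members and lists were chosen with earlier results of these data known. Alternatives were another pseudocount, no filter, median-ratio scaling, array weights, the compared groups alone, a replicate block, a fibroblast-score covariate, libraries left out and, added later, limma voom on recovered reads. Tables and plots were made in Python 3.11.15 with pandas 2.3.3, numpy 2.4.6 and matplotlib 3.10.9.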

Additional observations from a re-analysis of the deposited data

Results flagged for a closer look

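Each member's FPKM was checked in each group of 4 libraries, 136 sets in all, for a library whose gap to the nearest other exceeded the Dixon critical share of the range; chance flags about 1 in 20 sets, and members that move together are not independent. KO vehicle replicate 4 was flagged as the highest of its group for 31 members. WT vehicle replicate 3 was flagged as the lowest of its group for 12 members, among them Fn1 at 9.07 FPKM and Sparc at 8.498 FPKM, and as the highest for 1, Cav2 at 24.3 FPKM. WT dexamethasone replicate 4 was flagged as the lowest for 2 members, Dcn at 1.30 FPKM and Postn at 0.570 FPKM.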

How the results depend on the processing

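The number of members called moved with the libraries that stood apart, the covariate, array weights and, in the rich WT libraries, the sharing of the spread; why was not tested. Median-ratio scaling moved no count beyond 1.5 times. For dexamethasone in WT (3 members) it was 1 without the filter, 10 with array weights, 1 with only the groups compared, 14 without the 3 libraries apart, 5 in the 9 Col1a1-poor libraries (2155 genes in all, against 3508) and 16 with the covariate. For dexamethasone in KO (2 members, 4562 genes) it was 1 without the filter (4401 genes). Without the 3 libraries apart it was 7 (5325 genes) and with the covariate 11 (5494 genes). For KO against WT in vehicle (0 members, 545 genes) it was 1 with a pseudocount of 0.1, 33 with array weights (4840 genes), 33 without the 3 libraries apart (3958 genes), 2 in the 9 poor libraries (60 genes) and 1 with the covariate, and 244 genes passed with only the groups compared. For KO against WT under dexamethasone (24 members, 3114 genes) it was 12 without the filter, 6 in the 9 poor libraries (390 genes), 8 with the covariate (980 genes) and 10 by voom, and 6388 genes passed with array weights and 5158 without the 3 libraries apart. For the interaction (0 members, 15 genes) it was 4 with array weights (1391 genes), 6 without the 3 libraries apart (725 genes) and 4 with the covariate (154 genes), and 6 genes passed without the filter, 1 in the 9 poor libraries and 6 by voom. In the rich WT libraries (28 members, 3318 genes) it was 15 without the filter (2459 genes). Where the KO libraries shared the spread it was 5 (3229 genes), and with the covariate 17 (2444 genes). Same-numbered libraries correlated between -0.685 and 0.732 in their deviations, which neither shows nor excludes that the numbers pair the samples. With a replicate block, 13 members were lower in KO under dexamethasone and 1 gene passed for the interaction. Leaving out 1 library at a time gave 1 to 7 members (2898 to 3656 genes) for dexamethasone in WT, 1 to 2 (3761 to 4835) in KO, 0 to 20 (278 to 1623) for KO against WT in vehicle, 7 to 33 (1517 to 4070) under dexamethasone, 0 to 2 (2 to 330) for the interaction, 20 to 29 (2202 to 3721) in the rich WT libraries and 27 to 29 for an r of at least 0.9 with Col1a1. Of the called members' log2 differences, 6 changed sign, all for KO against WT under dexamethasone with the covariate and none of them called there: Col1a1 (0.10), Sparc (0.14), Pdgfra (0.27), Col1a2 (0.33), Acta2 (0.30) and Igfbp7 (0.27). Of the other alternative values of called members, 843 kept their direction and call and 269 kept their direction only. Members at 1 to 3 recovered reads in KO libraries are limited by counting error there.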
